A study of Mus musculus with 16 samples.

Results

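Aminoacyl-tRNA synthetases join each amino acid to its tRNA, the step that supplies the ribosome with charged tRNAs. The nuclear genome holds one set of genes for the enzymes of the cytosol and a largely separate set for enzymes that are imported into mitochondria, where they charge the tRNAs for the few proteins made there. Axons hold ribosomes and mitochondria far from the cell body, and mutations in several synthetase genes are known causes of inherited peripheral neuropathy.

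The synthetase genes were taken as the protein-coding rows of the count table whose symbol consists of a single amino acid letter followed by ars, with or without a final 1, 2 or 3, together with Eprs, Farsa and Farsb. This gave 37 genes of 46320 rows, of which 18 encode cytosolic enzymes, 17 mitochondrial enzymes and 2, Gars for glycine and Kars for lysine, enzymes of both sites. The rule uses symbols and no measured value. The table mostly gives older symbols, such as Aars for Aars1 and Lars for Lars1. Tarsl2, a further threonyl-tRNA synthetase gene, does not meet the rule. All 37 genes passed the filter on low counts, and the lowest count of any of them in a library was 101.

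RNA was analyzed from primary motoneurons of mouse lumbar spinal cord, taken at embryonic day 13, enriched by panning for the p75 neurotrophin receptor and grown in microfluidic chambers that separate axons from cell bodies and dendrites. The 4 groups were somatodendritic and axonal RNA of Hnrnpr +/+ motoneurons and of Hnrnpr -/- motoneurons, which carry a CRISPR/Cas9 knockout of the gene for the RNA-binding protein hnRNP R, with 4 libraries in each. All cultures received CNTF on both sides and BDNF only on the axonal side. Axonal cDNA was made in the full reaction volume and with more PCR cycles than somatodendritic cDNA, so the effects of compartment, of preparation and of BDNF cannot be told apart. In bulk RNA, fewer cells of a type and less RNA per cell cannot be told apart either. Levels are CPM, each count's share of its TMM-scaled library size, and between genes they are compared per kilobase of exon.

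Total counts ranged from 22024923 to 34864151 per library. Hnrnpr was at 120 to 422 CPM in +/+ libraries and at 0.545 to 1.16 CPM in -/- libraries, so the knockout was seen in all of the latter. The 5 defining motoneuron markers (Chat, Slc18a3, Slc5a7, Isl1 and Mnx1) summed to 11.5 to 28.2 CPM in +/+ and 14.2 to 19.7 CPM in -/- somatodendritic libraries, with Mnx1 at 0 in both groups. The sum was 0.910 to 15.7 CPM in +/+ axons and 1.53 to 8.66 CPM in -/- axons. The 6 markers of astrocytes or radial glia summed to 972 to 1350 CPM in +/+ somatodendritic and 1962 to 4703 CPM in +/+ axonal libraries, to 903 to 2008 and 1901 to 3758 CPM in -/- libraries, and were all above 0 in every library. Summed markers ranged across all libraries from 44.5 to 1014 CPM for oligodendroglia or Schwann cells, from 51.6 to 1549 CPM for fibroblasts or meningeal cells and from 0.523 to 202 CPM for microglia. These sums moved with the compartment or varied between libraries, and their part in the results below was not tested. One library stood apart: in +/+ axonal replicate 2, the 24 rows of the mitochondrial genome summed to 17750 CPM, against 1447 to 1968 CPM in the other +/+ axonal libraries, 496 to 4056 CPM in -/- axons and 343 to 772 CPM in somatodendritic libraries. The 4 nuclear RNAs listed summed to 2454 CPM in that library, against 507 to 1215 CPM in the other +/+ axonal libraries, 589 to 797 CPM in -/- axons and 633 to 1078 CPM in somatodendritic libraries, and 3 of the 4 were called higher and 1 lower in +/+ axons and 1 higher and 1 lower in -/- axons. The most abundant of the 24 mitochondrial rows was mt-Rnr2, the large mitochondrial ribosomal RNA.

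Cytosolic enzymes were the more abundant set at the RNA level. The median level of the 18 cytosolic genes was 44.4 ± 3.17 CPM per kb (SD, n = 4) in +/+ somatodendritic libraries, 44.2 ± 3.69 in -/- somatodendritic libraries, 44.6 ± 6.97 in +/+ axons and 49.6 ± 5.25 in -/- axons. The median of the 17 mitochondrial genes was 8.97 ± 0.574, 8.76 ± 0.457, 8.73 ± 1.52 and 9.15 ± 1.36 CPM per kb in the same order. Each class median thus changed by little across the 4 groups.

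**Figure D1:**
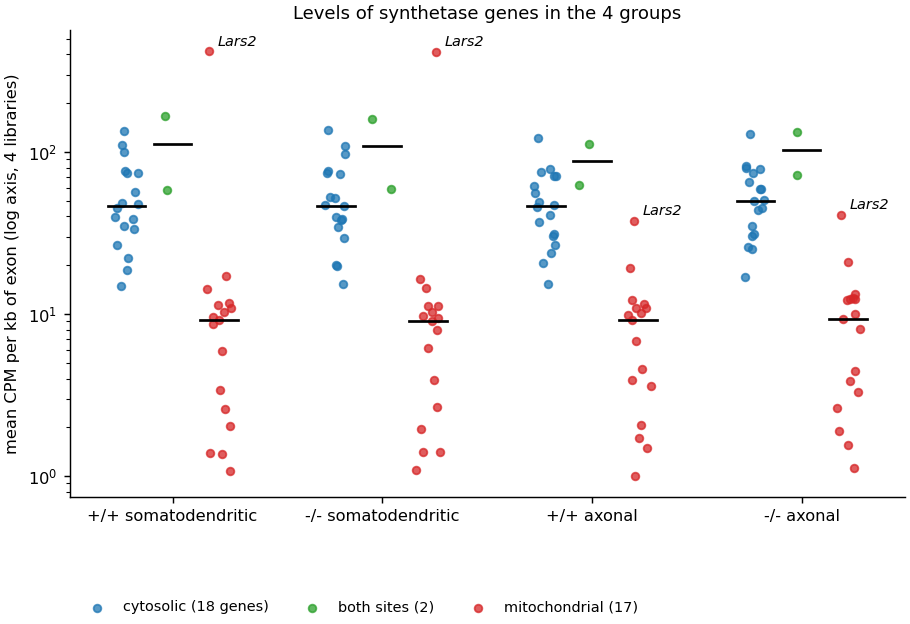
Mean level of each synthetase gene in CPM per kb of exon (log axis) in the 4 groups, with 4 libraries in each. Points are genes, and bars are medians of 18 cytosolic, 2 dual and 17 mitochondrial genes. Most cytosolic genes lie above the mitochondrial ones in all groups, and Lars2 is the highest gene in both somatodendritic groups and falls among cytosolic genes in axons.

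Cytosolic and mitochondrial genes for the same amino acid made 18 pairs, since phenylalanine has 2 cytosolic subunit genes (Farsa and Farsb) and Eprs serves both glutamate and proline. In 17 pairs the cytosolic gene had more CPM per kb in every library of all 4 groups, and only the leucine pair did not follow. With the length of the Ensembl canonical transcript in place of all exons, a choice made after seeing the data, this held for 16 pairs, since Tars was at 0.778 to 1.27 times Tars2 in +/+ somatodendritic libraries. Over the 17 pairs without leucine, the median ratio per kb of all exons was 8.59 in +/+ and 8.74 in -/- somatodendritic libraries. It was 6.86 in +/+ axons and 6.50 in -/- axons. The order of the pairs depends on the length used. Per kb of all exons, Nars was 97.8-fold above Nars2, for asparagine, in +/+ somatodendritic libraries and 87.4-fold above it in +/+ axons. Per kb of the canonical transcript it was 40.5-fold and 36.2-fold above, and Mars1 was the widest at 95.8-fold above Mars2 in +/+ somatodendritic libraries. Per kb of all exons the ratio outside the leucine pair was narrowest for valine in +/+ somatodendritic libraries, where Vars was 2.51-fold above Vars2, and for cysteine in +/+ axons, where Cars was 2.5-fold above Cars2. The valine ratio was 5.91 in +/+ axons.

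For leucine the mean ratio was below 1 in all 4 groups, although Lars was above Lars2 per kb in +/+ axonal replicate 4, where the ratio was 1.19. Lars was at 0.0641 times the level of Lars2 in +/+ somatodendritic libraries and at 0.0725 times in -/- somatodendritic libraries, against 0.689 times in +/+ axons and 0.634 times in -/- axons. Lars2, the mitochondrial leucyl-tRNA synthetase, ranked first of the 37 genes in somatodendritic libraries of both genotypes, at 417 and 416 CPM per kb. It ranked 14 in +/+ axons at 37.7 CPM per kb and 15 in -/- axons at 41.1 CPM per kb.

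In single libraries, Lars2 was at 1712, 1789, 2005 and 1897 CPM in +/+ somatodendritic replicates 1 to 4 and at 147, 136, 256 and 129 CPM in +/+ axonal replicates 1 to 4. The -/- libraries were at 1505, 2007, 1890 and 1990 CPM in the somatodendritic compartment and at 156, 176, 225 and 173 CPM in axons. The lowest somatodendritic library was thus far above the highest axonal one in both genotypes. The axonal level was 11.1-fold lower in +/+ (log2 fold change -3.47, SE 0.224) and 10.1-fold lower in -/- motoneurons (log2 fold change -3.34, SE 0.223). Lars2 was singled out for this difference, so it is given as a description without a test. Lars2 made up 79.7% ± 1.00 (SD, n = 4) of the summed CPM of the mitochondrial class in +/+ somatodendritic libraries and 26.8% ± 7.01 in +/+ axons. The other 16 mitochondrial genes together summed to 469.8 ± 8.01 CPM and 448 ± 45.1 CPM in these groups, and the values were 461 ± 22 and 493 ± 30.1 CPM in -/- motoneurons.

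Lars2 lies at chr9:123195992-123291740 on the plus strand of GRCm39. Part of the 3′ UTR of its transcript recurs elsewhere in the genome. A stretch of 398 bases in the last exon, exon 21, at chr9:123290857-123291254, holds all 22 matches of the 3934-base transcript to other loci, each of 50 to 244 bases with 82.2% to 99.3% identity. The matches touch 10 other rows of the table. The closest is on the unplaced scaffold MU069435.1, with no row, and another of 167 bases with 97.6% identity lies within the span of the lncRNA Gm15564 at chr16:35802025-35802191. The lines show 30 bases of the stretch, at chr9:123291136-123291165, and the aligned bases at other loci, because reads from such copies are hard to assign. Capitals mark bases that differ from Lars2.

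Lars2: tcacccactaatagggaacgtgagctggga
MU069435.1 scaffold: tcacccactaatagggaacgtgagctgggT
Gm15564: tcacccactaatagggaacgtgagctgggT
Impg1: tcacccactaatagggaaTgtgagctgggT

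Within this window, Gm15564 and the scaffold differed from Lars2 at 1 base and the copy in Impg1 at 2. A read with several alignments was divided among them in these counts, and Lars2 held a fractional count in 16 of 16 libraries, as did Vars, for which no such match elsewhere was found. The span of Lars2 also shares 9446 bases with that of the lncRNA Gm46137 on the same strand. Reads in exons of both were divided between them. Gm15564 was at 300.2, 305, 350 and 383 CPM in +/+ somatodendritic libraries and at 20.1, 28.8, 47.6 and 20.6 CPM in +/+ axons. In -/- libraries it was at 254, 343, 324 and 343 CPM in the somatodendritic compartment and 27.6, 27.9, 38 and 34.7 CPM in axons. These groups did not overlap, and +/+ axonal replicate 3 was the highest of its group for both Gm15564 and Lars2. The deposited counts do not show where in the transcript the reads fell, so the part of the shared stretch or of the overlap with Gm46137 in the level of Lars2 was not tested.

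Over all 16 libraries and the 12997 other tested rows with a mean of at least 5 CPM, the row whose centred log2 levels were closest to those of Lars2 was the lncRNA Gm46178, with a root mean square difference of 0.136. Gm15564 followed at 0.142 and the lncRNA LOC118568007 at 0.199. This measure of likeness was chosen after the values were seen. The next row, Mir6236, was at 0.369. Of these rows, only Gm15564 was among those touched by the matches of the Lars2 stretch.

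**Figure D2:**
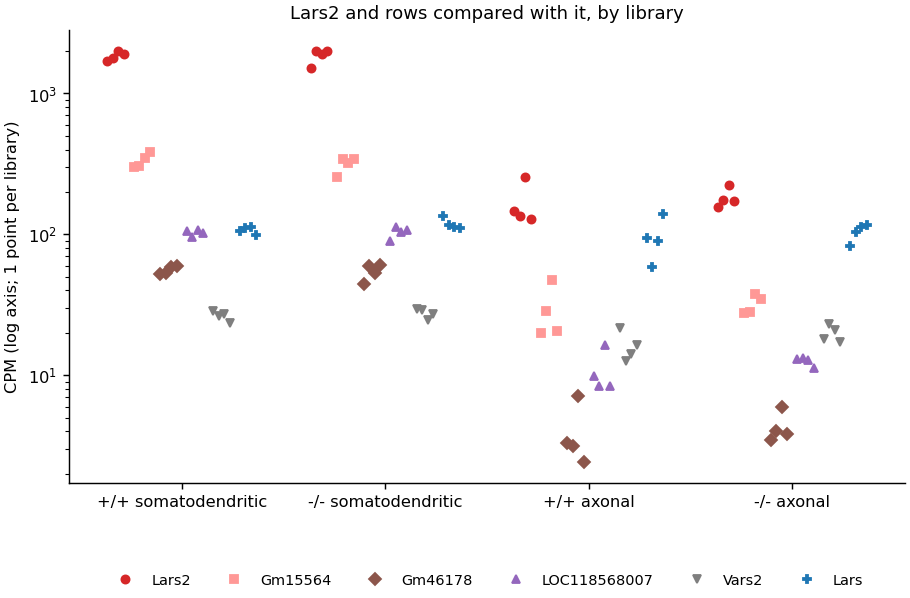
CPM (log axis) of Lars2, of 3 lncRNA rows with the most similar profile, and of Vars2 and Lars for comparison, with 1 point per library in the 4 groups. Lars2 falls from 1505 to 2007 CPM in somatodendritic libraries to 129 to 256 CPM in axons, whereas Lars overlaps between compartments.

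Lars, the cytosolic leucyl-tRNA synthetase and a subunit of the multi-synthetase complex, was at 105.5, 112, 113 and 98.6 CPM in +/+ somatodendritic libraries and at 94.7, 58.6, 89.4 and 139 CPM in +/+ axons. It was at 135, 116, 113 and 110.2 CPM in -/- somatodendritic libraries and 82.7, 103.5, 113 and 117 CPM in -/- axons. The groups overlapped in both genotypes. The log2 fold change was -0.17 (SE 0.203, adjusted p = 0.493) in +/+ and -0.19 (SE 0.203, adjusted p = 0.453) in -/- motoneurons by edgeR's quasi-likelihood test with Benjamini-Hochberg adjustment over 19964 genes, which gives all adjusted p values here.

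Among the other 36 synthetase genes, 2 were higher and 7 lower in +/+ axons than on the somatodendritic side (adjusted p under 0.05), that is 25% of them. Of all genes tested, 57.5% passed in either direction, 30.1% as higher and 27.4% as lower. In -/- motoneurons, 6 were higher and 4 lower, or 27.8%, against 54.2% of all genes, 27.5% as higher and 26.8% as lower. Most synthetase genes differed little between compartments: the median size of the log2 fold change over the 36 was 0.307 in +/+ and 0.285 in -/-, beside 0.981 and 0.926 over all genes tested. Of the 36, 1 passed 2-fold in +/+ and 0 in -/-, where 49.3% and 46.6% of all genes did. The 4 axonal and 4 somatodendritic libraries did not overlap for 8 of the 36 in +/+ and 11 of the 36 in -/-, against 52.4% and 51.4% of all genes.

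The split between higher and lower depends on the scaling. With library totals in place of TMM factors, the median of all genes moved from 0.072 to 0.22 in +/+ and from -0.0028 to 0.12 in -/-, and the counts became 10 higher and 4 lower in +/+ and 13 higher and 1 lower in -/-. The calls of Aars, Gars, Yars and Vars2 as lower and of Farsa as higher in +/+ were kept under every alternative run. So were those of Aars as lower and of Farsa, Cars2 and Sars2 as higher in -/-. The alternatives were 18 changes of processing or omissions of a library compared, and the omission of any 1 library of the other genotype. Without +/+ axonal replicate 2, the +/+ counts were 5 higher and 6 lower, with Dars and Iars lost and Fars2, Qars, Rars and Tars gained. Blocking on the replicate number, which pairs the compartments, gave 4 higher and 7 lower in +/+.

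**Figure D3:**
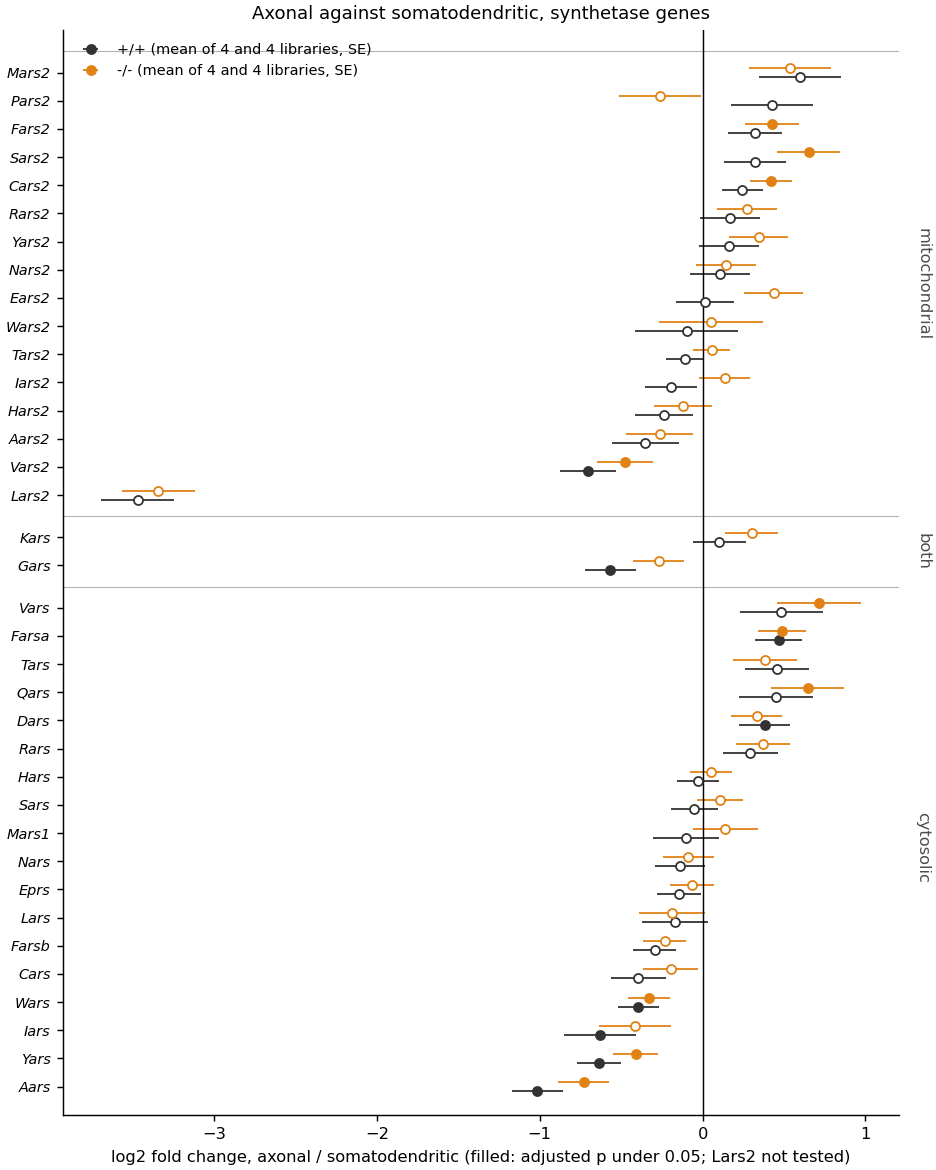
Log2 fold change, axonal over somatodendritic, of 36 of the 37 synthetase genes in +/+ and -/- motoneurons, from 4 and 4 libraries with bars of 1 SE. Filled points have an adjusted p under 0.05, and Lars2 was not tested. Aars, Yars and Wars lie left of 0 in both genotypes and Farsa right of it, and Lars2 stands apart at -3.47 and -3.34.

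Of the 18 cytosolic genes, 2 were higher, 4 lower and 12 not called in +/+ axons, where 30.1% of all genes were higher and 27.4% lower. In -/- axons 3 were higher, 3 lower and 12 not called, where 27.5% and 26.8% of all genes were. Their median log2 fold change was -0.12 in +/+ and -0.0056 in -/-, with both medians above 0 under library totals (0.030 and 0.11). The median over all genes tested was 0.072 and -0.0028.

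Aars, the alanyl-tRNA synthetase at chr8:111759781-111784237, was at 614, 678, 658 and 583 CPM in +/+ somatodendritic libraries and at 359, 262, 291 and 343 CPM in +/+ axons. Among -/- libraries it was at 775.5, 594, 593 and 516 CPM in the somatodendritic compartment and at 441, 385, 345 and 323 CPM in axons. All somatodendritic libraries were above all axonal ones in both genotypes. The span of Aars shares 1267 bases with that of Exosc6, a protein-coding gene on the same strand, and reads in exons of both were divided between them. The log2 fold change was -1.01 (SE 0.157, adjusted p = 0.00015) in +/+ and -0.73 (SE 0.157, adjusted p = 0.00149) in -/-.

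Yars, the tyrosyl-tRNA synthetase, was at 265, 290.4, 294 and 275 CPM in +/+ somatodendritic libraries and at 204.5, 156, 161 and 203 CPM in +/+ axons. The -/- libraries were at 316, 288, 266 and 234 CPM and at 227.5, 221, 185 and 197 CPM. The compartments did not overlap in either genotype. It fell by 0.64 (log2, SE 0.138, adjusted p = 0.00142) in +/+ and by 0.41 (SE 0.138, adjusted p = 0.0203) in -/- axons. The -/- call was lost without -/- axonal replicate 3 or 4 or somatodendritic replicate 1 or 2 (adjusted p up to 0.115), and with library totals, without a filter or with only the 8 libraries compared.

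Iars, the isoleucyl-tRNA synthetase, was at 241, 217, 223 and 186.5 CPM in +/+ somatodendritic libraries and at 151, 109, 108 and 192.5 CPM in +/+ axons, where replicate 4 reached into the somatodendritic range. It was at 311, 168, 199.6 and 156 CPM in -/- somatodendritic libraries and at 161, 155, 161 and 149 CPM in -/- axons, with overlap. The log2 fold change was -0.63 (SE 0.221, adjusted p = 0.0246) in +/+, a call lost without +/+ axonal replicate 2 or 3 or somatodendritic replicate 1, 2 or 3 (adjusted p up to 0.108), or with library totals. Its value is uncertain, because 61.3% of its transcript matches other loci at 95% identity or more, the longest match being 1678 bases on chromosome 1. Wars, the tryptophanyl-tRNA synthetase, was the remaining cytosolic gene called lower. It ranged from 198 to 220.4 CPM in +/+ somatodendritic libraries and from 139 to 185 CPM in +/+ axons, and from 191 to 229 CPM and 156 to 187 CPM in -/- libraries, with log2 fold changes of -0.39 (SE 0.127, adjusted p = 0.0154) and -0.33 (SE 0.127, adjusted p = 0.0385). The +/+ call was lost without +/+ axonal replicate 3 or somatodendritic replicate 2, 3 or 4 (adjusted p up to 0.0779), and with library totals, without a filter or with only the 8 libraries compared. The -/- call was lost without -/- axonal replicate 1, 3 or 4 or somatodendritic replicate 1, 2 or 4 (adjusted p up to 0.121) and with a block on the replicate number (adjusted p = 0.0517) or on the culture, meaning the replicate number within a genotype (adjusted p = 0.0839). It was also lost with library totals, either other filter on low counts, only the 8 libraries compared or protein-coding genes only, and without +/+ axonal replicate 3 or 4 or any 1 of the +/+ somatodendritic libraries.

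Farsa, a subunit of the phenylalanyl-tRNA synthetase, was the gene called higher in both genotypes. It was at 104, 105, 103 and 114 CPM in +/+ somatodendritic libraries and at 159, 144, 167 and 118 CPM in +/+ axons. In -/- libraries it was at 93.3, 108, 98.5 and 94.9 CPM and at 113, 138, 172 and 130.2 CPM. The axonal libraries were above all somatodendritic ones, with log2 fold changes of 0.47 (SE 0.146, adjusted p = 0.0131) and 0.49 (SE 0.146, adjusted p = 0.011). Farsb, the gene of the partner subunit, did not follow, at -0.29 (SE 0.132, adjusted p = 0.0684) and -0.23 (SE 0.132, adjusted p = 0.149).

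Vars, the valyl-tRNA synthetase, was at 130, 143, 120.3 and 94.6 CPM in +/+ somatodendritic libraries and at 187, 130.5, 225 and 139 CPM in +/+ axons, with overlap. Among -/- libraries it was at 142, 120.1, 112 and 130.4 CPM and at 105, 234, 284 and 206 CPM, where axonal replicate 1 was below all somatodendritic libraries. The log2 fold change was 0.48 (SE 0.256, adjusted p = 0.119) in +/+ and 0.71 (SE 0.257, adjusted p = 0.0286) in -/-. The -/- call was lost without -/- axonal replicate 2, 3 or 4 or somatodendritic replicate 2, 3 or 4 (adjusted p up to 0.0898) and with the culture block (adjusted p = 0.0801).

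Tars, the threonyl-tRNA synthetase, was at 81.3, 90.6, 105.5 and 74.9 CPM in +/+ somatodendritic libraries and at 116, 95.4, 140.5 and 132 CPM in +/+ axons. The -/- libraries were at 102, 98.6, 109 and 91.4 CPM and at 90.3, 112, 179 and 142 CPM. The groups overlapped, and it was not called in +/+ (0.46, SE 0.196, adjusted p = 0.0574) or -/- (0.39, SE 0.196, adjusted p = 0.108).

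The multi-synthetase complex binds 8 of the enzymes to 3 scaffold proteins. Of its 8 synthetase genes (Dars, Eprs, Iars, Kars, Lars, Mars1, Qars and Rars), 1 was called higher (Dars) and 1 lower (Iars) in +/+ axons and 1 higher (Qars) in -/- axons, with medians of 0.0012 and 0.22, beside 30.1% of all genes called higher and 27.4% lower in +/+ and 27.5% and 26.8% in -/-. Dars, for aspartate, ranged from 102 to 144.5 CPM in +/+ somatodendritic libraries and from 132 to 170 CPM in +/+ axons (0.38, SE 0.157, adjusted p = 0.0491). That call was lost without +/+ axonal replicate 1, 2 or 4 or somatodendritic replicate 1, 2 or 3 (adjusted p up to 0.0955), and without a filter or with only the 8 libraries compared. It was also lost without -/- axonal replicate 2 or 4 or -/- somatodendritic replicate 3 or 4, which enter the same model. In -/- axons Dars was at 0.33 (SE 0.157, adjusted p = 0.0847), and passed with a block on the replicate number (adjusted p = 0.0436) or without -/- axonal replicate 1 (adjusted p = 0.0336), and also with library totals, the stricter filter on counts or protein-coding genes only. Qars, for glutamine, ranged from 44.1 to 59.3 CPM in -/- somatodendritic libraries and from 66.6 to 105 CPM in -/- axons (0.64, SE 0.226, adjusted p = 0.0253). That call was lost without -/- axonal replicate 3 or somatodendritic replicate 1 or 3 (adjusted p up to 0.0768). Of the scaffold genes, Aimp1 and Aimp2 were higher in axons of both genotypes, whereas Eef1e1 was not called. Aimp1 was at 23.1 ± 1.66 CPM (SD, n = 4) in +/+ somatodendritic libraries and 42.8 ± 5.23 CPM in +/+ axons, with log2 fold changes of 0.89 (SE 0.161, adjusted p = 0.000405) in +/+ and 0.93 (SE 0.161, adjusted p = 0.000366) in -/-. Aimp2 was at 0.82 (SE 0.196, adjusted p = 0.00256) and 1.01 (SE 0.197, adjusted p = 0.000799). The 12 cytosolic or dual genes outside the complex held 1 called higher and 4 lower in +/+ and 2 higher and 3 lower in -/-, beside those same shares.

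Gars and Kars each encode an enzyme of the cytosol and one of mitochondria. Gars, at chr6:55014986-55056489, was at 368, 403, 412 and 399.7 CPM in +/+ somatodendritic libraries and at 276, 202, 256.5 and 334 CPM in +/+ axons. It was at 439.9, 385, 359 and 343 CPM in -/- somatodendritic libraries and 380.5, 296, 294 and 296 CPM in -/- axons. The compartments did not overlap in +/+ (-0.57, SE 0.156, adjusted p = 0.00642) and overlapped in -/- (-0.27, SE 0.155, adjusted p = 0.155).

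Kars was at 128, 139, 144 and 137 CPM in +/+ somatodendritic libraries and at 161, 117, 183 and 127 CPM in +/+ axons. In -/- libraries it was at 129, 150.4, 129 and 142.5 CPM and at 134, 177, 209 and 158 CPM. The groups overlapped, with log2 fold changes of 0.10 (SE 0.163, adjusted p = 0.611) and 0.30 (SE 0.164, adjusted p = 0.133).

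The 7 genes linked to Charcot-Marie-Tooth neuropathy in people (Aars, Gars, Hars, Kars, Mars1, Wars and Yars) held 4 called lower in +/+ axons (Aars, Gars, Wars and Yars) and 3 in -/- axons (Aars, Wars and Yars), and 0 called higher in either, where 27.4% and 26.8% of all genes were called lower. The calls of Wars in both genotypes and of Yars in -/- were lost under several alternatives, as given above. Their median log2 fold change was -0.39 in +/+ and -0.27 in -/-. Hars, for histidine, was at -0.026 (SE 0.129, adjusted p = 0.875) and Mars1, for methionine, at -0.10 (SE 0.202, adjusted p = 0.692) in +/+. Mars1 shares 71 bases of its span with Ddit3 on the opposite strand, and reads of the pair cannot be told apart without strand.

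Several cytosolic synthetase genes are known targets of the amino acid response, in which ATF4 and C/EBP proteins bind a composite element with the core TGATGNAA. RefSeq promoter windows of GRCm38.p6, from 250 bases before to 50 bases after the start site, were matched for 27 of the 37 genes. The core was found on either strand in 4 of 11 cytosolic genes, in 1 of 2 dual genes and in 0 of 14 mitochondrial genes. It was in 4.51% of all 27025 genes with a window. The lines give 30 bases around 1 match in each of these genes, with the 8 bases of the core in capitals, to show the element and its flanks. In all but Yars the core is on the opposite strand and reads as its reverse complement.

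Aars: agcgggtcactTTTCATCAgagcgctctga
Gars: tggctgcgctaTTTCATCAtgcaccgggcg
Iars: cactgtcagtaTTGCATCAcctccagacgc
Tars: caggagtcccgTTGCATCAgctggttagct
Yars: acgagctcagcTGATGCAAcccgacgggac

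Of these 5 genes, 4 (Aars, Gars, Iars and Yars) were called lower in +/+ axons and 2 (Aars and Yars) in -/- axons, with a median of -0.63 and -0.41, where 27.4% and 26.8% of all genes were called lower. The calls of Iars in +/+ and of Yars in -/- were lost under several alternatives, as given above. Tars, at 0.46 and 0.39, was not called. Aars, Gars and Yars are also among the neuropathy genes above, so the sets are not independent. The cytosolic genes without a window were Cars, Hars, Lars, Nars, Rars, Vars and Wars. Of these, only Wars was called lower in axons of either genotype. A match is a description of the sequence, and binding was not measured.

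Of the 16 mitochondrial genes other than Lars2, 0 were higher, 2 lower and 14 not called in +/+ axons, and 3 were higher, 1 lower and 12 not called in -/- axons, beside the same shares of all genes (30.1% and 27.4% in +/+, 27.5% and 26.8% in -/-). The median log2 fold change over them was 0.062 in +/+ and 0.14 in -/-, and 0.015 and 0.14 with Lars2 included. Vars2, the valyl enzyme, was at 28.7, 26.5, 27.1 and 23.6 CPM in +/+ somatodendritic libraries and at 21.6, 12.7, 14.2 and 16.4 CPM in +/+ axons. Among -/- libraries it was at 29.8, 29.1, 24.6 and 27.3 CPM and at 18.1, 23.3, 21 and 17.4 CPM. The compartments did not overlap in either genotype, with log2 fold changes of -0.71 (SE 0.171, adjusted p = 0.00297) and -0.48 (SE 0.171, adjusted p = 0.0285). The -/- call was lost without -/- axonal replicate 1, 3 or 4 or somatodendritic replicate 1 or 2 (adjusted p up to 0.108), and with library totals, without a filter or with protein-coding genes only. It was also lost without +/+ axonal replicate 4 or any 1 of the +/+ somatodendritic libraries.

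The 3 mitochondrial genes called higher in -/- axons were Sars2, Cars2 and Fars2, for serine, cysteine and phenylalanine. Sars2 ranged from 14.3 to 21.6 CPM in -/- somatodendritic libraries and from 24.3 to 35.7 CPM in -/- axons (0.65, SE 0.192, adjusted p = 0.0104). Cars2 ranged from 21.3 to 24.8 CPM and from 28.9 to 31.3 CPM (0.42, SE 0.127, adjusted p = 0.0119). In +/+ motoneurons Sars2 was at 0.32 (SE 0.191, adjusted p = 0.164) and Cars2 at 0.24 (SE 0.127, adjusted p = 0.112). Fars2 was at 16.8, 17.2, 18.9 and 15.5 CPM in +/+ somatodendritic libraries and at 28.5, 16.7, 20.9 and 19.5 CPM in +/+ axons, and at 20.3, 16.9, 17.4 and 15.9 CPM and 21.8, 26.1, 23.6 and 23.4 CPM in -/- libraries. The -/- groups did not overlap, with 0.43 (SE 0.166, adjusted p = 0.0401), against 0.32 (SE 0.166, adjusted p = 0.109) in +/+. The -/- call was lost without -/- axonal replicate 2, 3 or 4 or somatodendritic replicate 2, 3 or 4 (adjusted p up to 0.110), without a filter and with the culture block (adjusted p = 0.071). The span of Fars2 shares 20270 bases with that of the lncRNA Gm40912 on the same strand, and reads in exons of both were divided between them.

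Mars2, the methionyl enzyme, had the largest positive estimate of the mitochondrial genes in +/+. It was at 7.81, 8.37, 6.91 and 6.85 CPM in +/+ somatodendritic libraries and at 10.7, 14.5, 11 and 9.21 CPM in +/+ axons, without overlap (0.60, SE 0.253, adjusted p = 0.0543). In -/- libraries it was at 6.13, 9.27, 7.08 and 8.06 CPM and at 5.78, 12.6, 14.4 and 11.5 CPM, with overlap (0.54, SE 0.253, adjusted p = 0.084). Both Mars2 and Tars lay near the threshold in +/+. Both were called higher with a block on the replicate number, library totals, the stricter filter on counts, only the 8 libraries compared or protein-coding genes only, and Mars2 also with the culture block or DESeq2. Leaving out single libraries of either genotype also brought one or both past it, and in -/- both passed with library totals or without -/- axonal replicate 1.

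Pars2, the prolyl enzyme, was at 10.7, 10.8, 7.95 and 12.9 CPM in +/+ somatodendritic libraries and at 16.7, 15.6, 11.8 and 12.8 CPM in +/+ axons. Among -/- libraries it was at 12.8, 11.4, 10.7 and 13.9 CPM and at 5.38, 12.1, 9.81 and 13.4 CPM, with -/- axonal replicate 1 the lowest of all 16. The estimates were 0.42 (SE 0.250, adjusted p = 0.158) in +/+ and -0.26 (SE 0.250, adjusted p = 0.392) in -/-.

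Other genes of the tRNA pathway, from maturation to delivery to the ribosome, were taken from 6 lists, written with earlier results of these data known. Of their 34 genes, all tested, 15 were higher and 7 lower in +/+ axons and 17 higher and 5 lower in -/- axons with TMM scaling, where 30.1% and 27.4% of all genes were higher and lower in +/+ and 27.5% and 26.8% in -/-. Of 15 genes of tRNA maturation, splicing and export, 8 were higher and 2 lower in +/+. Fam98b, of the tRNA ligase complex, had the largest increase, from 1.67 ± 0.575 to 8.51 ± 4.71 CPM (SD, n = 4, log2 2.34, SE 0.410, adjusted p = 0.000336). Zbtb8os followed at 1.62 (SE 0.268). Elac1, a tRNA 3′ processing enzyme, fell by 1.38 (log2, SE 0.275, adjusted p = 0.000794), and Xpot, the tRNA exporter, by 0.89 (SE 0.193, adjusted p = 0.00146). Of the 5 genes of proofreading in trans, Prorsd1 rose by 2.02 (SE 0.351, adjusted p = 0.000322) and Dtd1 fell by 0.79 (SE 0.230, adjusted p = 0.00876) in +/+.

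Of the 3 elongation factor genes that deliver charged tRNA to ribosomes, Eef1a1 and the mitochondrial Tufm were higher in +/+ axons, at 0.64 (SE 0.175, adjusted p = 0.00599) and 0.43 (SE 0.137, adjusted p = 0.0149). Eef1a2, the paralog of differentiated neurons and muscle, was at 46.2 ± 3.69 CPM in +/+ somatodendritic libraries and at 8.75 ± 3.84 CPM in +/+ axons (-2.40, SE 0.634, adjusted p = 0.00505). Of the 4 genes for mitochondrial glutaminyl-tRNA amidation and formylation, Gatc fell by 0.41 (SE 0.148, adjusted p = 0.0261) and Mtfmt by 0.46 (SE 0.175, adjusted p = 0.0358), and 0 passed in -/-. Of the 4 selenocysteine genes, Pstk and Secisbp2 were higher and Sepsecs lower in +/+, and Eefsec, Pstk and Secisbp2 were higher in -/-. These lists of 3 or 4 genes stand beside 30.1% of all genes higher and 27.4% lower in +/+, and 27.5% and 26.8% in -/-.

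Next, Hnrnpr -/- motoneurons were compared with +/+ motoneurons within each compartment. In axons, 0 of the 37 synthetase genes passed the adjusted threshold in edgeR, 0 had an unadjusted p under 0.05 and 0 passed with DESeq2, where 0.01% of all genes passed the adjusted and 3.88% the unadjusted threshold. In the somatodendritic compartment the counts were likewise 0 in edgeR, 0 at an unadjusted p under 0.05 and 0 with DESeq2, beside 0.00501% and 0.601% of all genes. For the difference of the genotype effect between compartments they were again 0, 0 and 0, beside 0% and 1.33%.

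Lars2 was 0.13 higher in -/- axons on the log2 scale (SE 0.203, adjusted p = 1), a value within the spread of the libraries, and at -0.0020 (SE 0.203, adjusted p = 1) in the somatodendritic compartment. Without +/+ axonal replicate 3, the axonal library with the most Lars2, the axonal estimate was 0.42. Its unadjusted p in edgeR was then 0.0153, the lowest of the 37 genes in that fit, and it did not pass the adjusted threshold. Among axonal comparisons, Iars2, the mitochondrial isoleucyl enzyme, had the lowest unadjusted p. It was at 79.7, 49.1, 57.6 and 67.2 CPM in +/+ axons and at 82.7, 84.7, 77.9 and 72.3 CPM in -/- axons, where replicate 1 of +/+ overlapped with -/- libraries (0.32, SE 0.157, adjusted p = 1). In somatodendritic libraries Iars2 was at 72.6, 71.6, 80.5 and 65.4 CPM in +/+ and at 88.1, 66.2, 72.0 and 62.6 CPM in -/-.

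Tars2, the mitochondrial threonyl enzyme, had the lowest unadjusted p in the somatodendritic compartment. It was at 51.0, 54.3, 52.1 and 60.6 CPM in +/+ and at 48.5, 49.9, 43.2 and 50.5 CPM in -/- somatodendritic libraries, where all -/- libraries were below all +/+ ones, as for 1.58% of all genes in either direction. The log2 fold change was -0.18 (SE 0.116, adjusted p = 1). The exact two-sided permutation test gave p = 0.0286, the smallest that 4 against 4 libraries allow, and Tars2 was the only gene of 37 to reach it. In axons Tars2 was at 53.5, 46.0, 49.1 and 53.9 CPM in +/+ and at 45.2, 49.5, 52.5 and 52.4 CPM in -/- libraries. In axons the genotypes overlapped for all 37 genes, where 0.606% of all genes did not overlap, and the lowest exact permutation p was 0.0857.

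For Pars2, the genotype effect differed most between compartments by unadjusted p. The difference was -0.69 on the log2 scale (SE 0.354, adjusted p = 1) and did not pass.

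**Figure D4:**
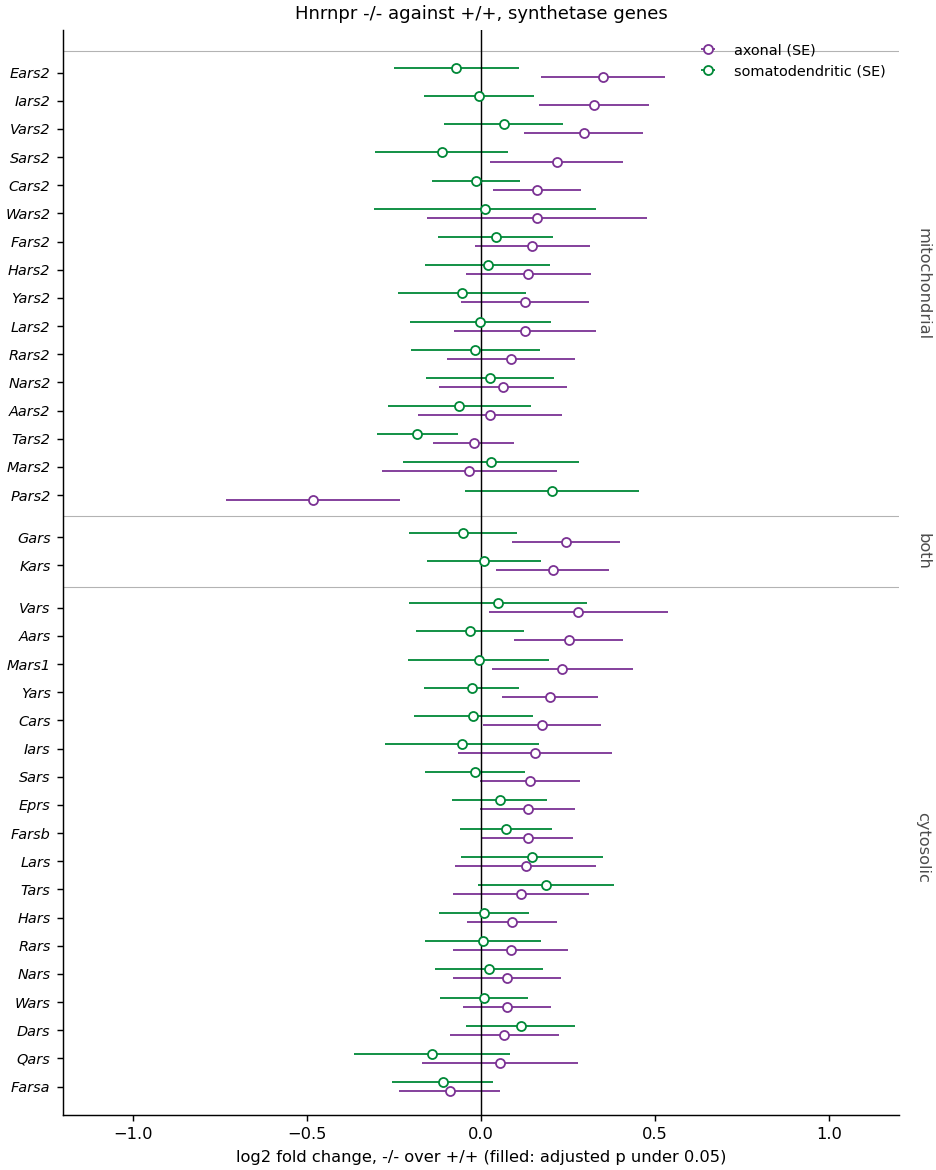
Log2 fold change of Hnrnpr -/- over +/+ for 36 of the 37 synthetase genes, in axons and on the somatodendritic side, with bars of 1 SE from 4 and 4 libraries. No point is filled, since 0 of 37 genes had an adjusted p under 0.05, and most axonal estimates lie right of 0.

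The estimates were above 0 for 33 of 37 genes in axons and for 18 of 37 in the somatodendritic compartment, where 53.1% and 50.4% of all genes were. The median was 0.13 in axons, beside 0.019 over all genes, and -0.0020 in the somatodendritic compartment, beside 0.0017. Without +/+ axonal replicate 2, 29 of 37 axonal estimates were above 0, with a median of 0.075. All cytosolic genes share the same 8 libraries, in which the summed CPM of the class was 3161, 2543, 3050 and 3460 in +/+ axons and 3250, 3304, 3646 and 3248 in -/- axons. The groups overlapped, with +/+ replicate 2 the lowest.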

How the data were processed

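Per the study's methods and the labels, cDNA was made with SMART-Seq v4, which does not mark strand. Reads were aligned with STAR 2.7.2b to RefSeq GRCm39 and counted on exons with featureCounts 1.6.4 in the reverse-strand setting, with multiply aligned or overlapping reads divided among genes. The values the authors deposited are these expected counts, not normalized, so reads from a gene and an antisense partner cannot be told apart, and 11 of the 37 genes overlap a row on the opposite strand. A count of 0 allows up to 3 counts. Intervals and floors cover counting error only, and p values measure the spread between these libraries.

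Counts were rounded, filtered by edgeR 4.0.16 (R 4.3.3) per group to 19964 genes and scaled by TMM factors. A quasi-likelihood model with 4 group means was fitted to 16 libraries, two-sided, with Benjamini-Hochberg adjustment and a threshold of 0.05. Calls of members count that threshold. The SE is the log2 fold change divided by the square root of F. Exact permutation tests used log2(CPM + 0.5). Transcripts were compared with the GRCm39 genome by BLAST+ 2.17.0.

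Deviations of libraries with the same replicate number correlated between the compartments of a genotype (0.105 to 0.508) for all 4 numbers, so the numbers pair the compartments. Between genotypes the correlations ranged from -0.0458 to 0.677 and were over 0.1 for only 2 of 4 numbers in each compartment, so the numbers were not taken to pair genotypes. Members and lists were chosen with earlier results of these data known. Genes with values in every library are Lars2, Lars, Gars, Kars, the 3 largest and 3 smallest +/+ compartment changes in each class and the lowest p of each genotype contrast. The values of 1 member and 1 sequence are not reported here, though the member is in all counts and medians. Others are called members, Farsb, Hars and Mars1, and, of the pathway lists, some of the genes past the threshold. Farsb, Hars, Mars1, Eef1e1, the lncRNA rows and the rows touched by the Lars2 matches were named after their values were seen.

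Alternatives were RLE size factors, library totals, no filter, a minimum of 10 counts in all libraries of any group, unrounded counts, DESeq2 1.42.0, only the 8 libraries compared, protein-coding genes only, the replicate number as a block and each library left out. A block for each culture and the length of the GENCODE canonical transcript were chosen after seeing the data.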

Additional observations from a re-analysis of the deposited data

Results flagged for a closer look

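In 5 of 144 groups of 4 libraries examined (36 genes in 4 groups), the gap between 1 library and its nearest neighbour exceeded Dixon's critical share of the group's range on a log2 scale, where chance flags about 1 in 20. Dars in -/- axonal replicate 1 was at 130.6 CPM, below 172 to 178 CPM in the other replicates. Gars in the same library was at 380.5 CPM, above 294 to 296 CPM. Hars in -/- axonal replicate 3 was at 175 CPM, above 152 to 153 CPM. In +/+ somatodendritic replicate 4, Qars was at 68.4 CPM, above 49.6 to 51.8 CPM. Nars, the cytosolic asparaginyl enzyme, was at 422.5 CPM in +/+ axonal replicate 4, above 277 to 291 CPM. Leaving out -/- axonal replicate 1 brought Dars past the threshold in -/- motoneurons, as did other settings given above. Leaving out +/+ somatodendritic replicate 4 brought Qars past it in +/+ (log2 0.61, adjusted p = 0.0487 in edgeR). No gene differed between compartments in its genotype effect at an adjusted p under 0.05 in edgeR, with 0 of 37 at an unadjusted p under 0.05 and 0 in DESeq2.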

How the results depend on the processing

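Counts of synthetase genes called between compartments moved with the processing. In +/+ axons the 2 genes called higher became 10 with library totals, 1 without a filter, 4 with a minimum of 10 counts in all libraries of any group, 6 with protein-coding genes only and 4 with a block on the replicate number, and 1 to 5 with a library left out. The 7 called lower became 4 with library totals and 5 to 8 with a library left out. In -/- axons the 6 called higher became 13 with library totals and 3 to 10 with a library left out. The 4 called lower became 1 with library totals, 1 without a filter, 2 with only the 8 libraries compared, 2 with protein-coding genes only and 1 to 4 with a library left out. Of the libraries compared, those that moved a count by over 1.5 times were, in +/+, axonal replicates 1 and 2 and somatodendritic replicates 1 and 2, and, in -/-, axonal replicates 1, 3 and 4 and somatodendritic replicates 1, 2 and 3. Leaving out any 1 of the -/- libraries also moved the +/+ count called higher, to 1, 4 or 5, and leaving out +/+ axonal replicate 4 or any 1 of the +/+ somatodendritic libraries moved the -/- count called lower to 2. The cause was not tested. The median log2 fold change of cytosolic genes turned from -0.12 to 0.030 in +/+ and from -0.0056 to 0.11 in -/- with library totals, a setting that shifts all genes. With 1 library left out, the cytosolic median ranged from -0.14 to -0.013 in +/+ and from -0.051 to 0.053 in -/-, and the mitochondrial one from -0.060 to 0.18 and from 0.073 to 0.18, so the sign of the -/- cytosolic and +/+ mitochondrial medians is not settled. For genotype and the compartment difference, the counts of 0 at the adjusted threshold held under all alternatives. At an unadjusted p under 0.05 the axonal count became 1 with the replicate block (Iars2), 2 without -/- axonal replicate 1, 1 without -/- axonal replicate 4, and 3, 2 and 1 without +/+ axonal replicates 1, 3 and 4. Lars2 was 1 of the 2 without +/+ axonal replicate 3. The compartment difference gave 1 without -/- axonal replicate 4 and 1 without +/+ axonal replicate 1. The block fits changed no call other than those given above. The lowest counts were those of Wars2 (101) and Mars2 (146).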
